A study of Hymenochirus boettgeri with 8 samples.

Results

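In the dwarf clawed frog Hymenochirus boettgeri, 7 assembly genes had transcripts with opposite courses. In each gene 1 transcript was higher in eggs and cleaving embryos, and at least 1 other was higher in later embryos and tadpoles. The genes were chosen by a rule on the deposited expression values of all 8 libraries. Each gene had at least 1 transcript whose lowest value in the unfertilized eggs and 8-cell embryos was at least 3 TPM and at least 4 times its highest value at stage 26 and in swimming tadpoles. Each also had at least 1 other transcript with the reverse. Such opposite changes are called an exchange here, whether or not further transcripts of the gene stayed present throughout. The rule found 7 members among 145306 assembly genes, of which 43257 had 2 or more transcripts. TPM expresses a transcript as a share of all transcripts in its library, scaled for length. The 4 egg and 8-cell libraries are called early here and the 4 stage 26 and tadpole libraries late.

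Poly-A RNA of whole wild-type eggs, embryos or tadpoles was sequenced at 4 stages: the unfertilized egg, the 8-cell stage, stage 26 on the Nieuwkoop and Faber (NF) scale of Xenopus, and the swimming tadpole. Each stage had 2 libraries. Neither the parents or clutches of the animals nor their number per library is given in the labels used here. The p-values below therefore reflect library-to-library spread that may be technical in part or whole. In whole animals, fewer cells of a type and less RNA per cell cannot be told apart.

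A frog egg is loaded with maternal mRNA during its growth in the ovary, and its own genome stays silent through the first cleavages. In Xenopus, transcription begins at the mid-blastula transition, and many maternal mRNAs are then removed while the embryo makes its own. A gene can give several mRNAs through alternative start sites, splicing or end sites, so that 1 gene may be represented by one mRNA from the mother and by another from the embryo. The deposited table pairs no identifier with a gene name and no sequences were used here, so the roles of these genes are not given. An assembly gene is a group of assembled sequences that share parts. Whether 2 transcripts of 1 assembly gene are splice forms, alleles or close gene copies cannot be told apart in these values, and the term isoform is used only for that grouping.

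Such exchanges were rare at these limits. Among the genes with 2 or more transcripts, 358 had an early transcript, one that met the first condition of the rule, and 1749 had a late transcript, one that met the second. The 7 members were thus 1.96% of the genes with an early transcript and 0.400% of those with a late one. For comparison, 4.04% of all genes with 2 or more transcripts had a late transcript and 0.828% an early one. These shares count any transcript of a gene, whereas a member needs a further transcript beside the first. They are therefore not like for like, and no depletion is read from them. The members had 2 to 8 transcripts, with a median of 5, against a median of 2 over all genes with 2 or more. The members c129475_g2, c120922_g1, c129174_g4 and c131031_g5 had 5 or more transcripts, as had 8.28% of genes with 2 or more. The remaining members were c115722_g1 and c133744_g5, with 2 transcripts each, and c131574_g5, with 3. How far the number of transcripts set the choice was not tested.

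In all, the members held 31 transcripts: 7 early ones, 9 late ones and 15 that met neither condition of the rule. Each member had 1 early transcript, 5 had 1 late transcript and 2 had 2. Summed over the members, the early transcripts held between 3.20 and 8.17 TPM in the late libraries and between 104 and 262 TPM in the early libraries. The late transcripts held between 298 and 594 TPM in the late libraries and between 4.97 and 7.60 TPM in the early libraries. These differences between late and early are what the rule chose, so they are described without a test. The members together made up 0.0200% to 0.0954% of the TPM of a library.

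**Figure D1:**
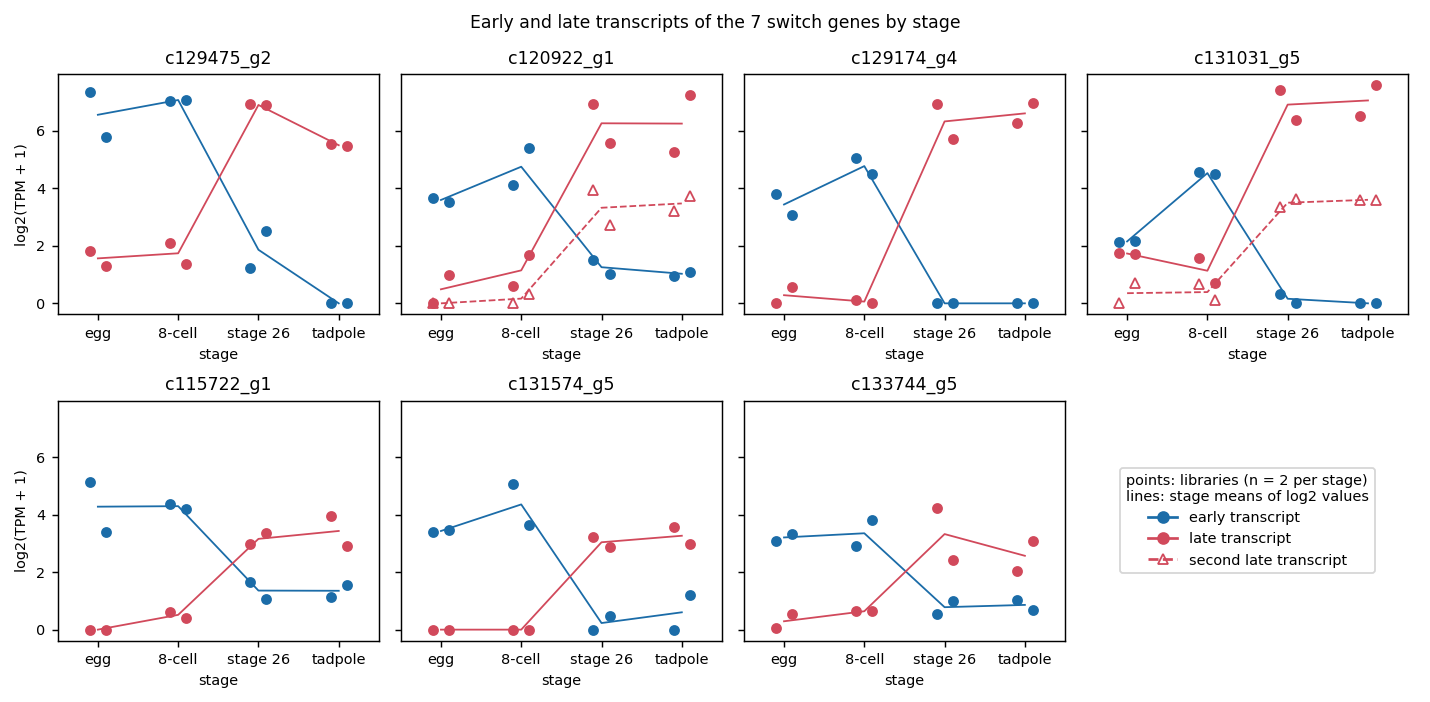
Log2(TPM + 1) of the early (blue) and late (red) transcripts of each of the 7 genes against stage, with 1 point per library (n = 2 per stage) and lines through the stage means; triangles and dashed lines mark a second late transcript. In every panel the lines cross between the 8-cell stage and stage 26. The rule sets the fall of the early transcript and the rise of the late one, but does not compare them with each other. The first late transcripts of the 4 genes in the upper row reach higher late values than those of the 3 genes in the lower row.

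The most abundant member was c129475_g2, with a mean gene total of 196 TPM over the 8 libraries. Its early transcript, c129475_g2_i4, had 161 and 53.9 TPM in eggs, 132 and 135 TPM in 8-cell embryos, 1.34 and 4.66 TPM at stage 26, and was listed at 0 in both tadpole libraries. Its late transcript, c129475_g2_i1, had 2.55 and 1.46 TPM in eggs, 3.32 and 1.59 TPM in 8-cell embryos, 120 and 117 TPM at stage 26 and 45.4 and 43.3 TPM in tadpoles. The late transcript was thus highest at stage 26, where its libraries lay close together, and was lower in both tadpole libraries. It was not listed at 0 in any library, and the same gene had a further 3 transcripts with other courses.

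The second most abundant member, c120922_g1, averaged 115 TPM as a gene and had 8 transcripts. Its early transcript, c120922_g1_i4, had 11.8 and 10.4 TPM in eggs, 16.3 and 41.1 TPM in 8-cell embryos, 1.81 and 1.03 TPM at stage 26 and 0.932 and 1.15 TPM in tadpoles. The larger of its late transcripts, c120922_g1_i2, had 0 and 0.968 TPM in eggs, 0.525 and 2.22 TPM in 8-cell embryos, 122 and 47.0 TPM at stage 26 and 37.7 and 149 TPM in tadpoles. Within stage 26 and within tadpoles the libraries of this late transcript differed by more than the stages did. Its second late transcript followed at a lower level, between 5.54 and 14.4 TPM in the late libraries and at most 0.256 TPM in the early ones. A further transcript, i6, was present throughout, with 15.5 to 61.7 TPM in the late libraries and 16.9 to 55.7 TPM in the early ones.

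The gene c129174_g4 had 6 transcripts. Its early transcript had 12.9 and 7.49 TPM in eggs and 32.0 and 21.7 TPM in 8-cell embryos, and was listed at 0 in all 4 late libraries, as were 13.1% of all 877 early transcripts of the table. Its late transcript had 0 and 0.481 TPM in eggs, 0.0880 and 0 TPM in 8-cell embryos, 123 and 51.3 TPM at stage 26 and 75.5 and 123 TPM in tadpoles. Its 4 other transcripts were listed above 0 in every library. One of these, i5, was also lower late, at 3.17 to 6.36 TPM in the late libraries against 10.8 to 20.5 TPM in the early ones, but by less than the rule asks.

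The gene c131031_g5 had the largest difference in its total, described further down. Its early transcript had 3.40 and 3.50 TPM in eggs and 22.7 and 21.5 TPM in 8-cell embryos, then 0.247 and 0 TPM at stage 26 and 0 in both tadpole libraries. Its larger late transcript had 2.39 and 2.27 TPM in eggs, 1.97 and 0.622 TPM in 8-cell embryos, 172 and 82.9 TPM at stage 26 and 91.5 and 191 TPM in tadpoles. The second late transcript stayed between 9.25 and 11.5 TPM in the late libraries and at or under 0.632 TPM in the early ones. In eggs the early and the larger late transcript of this gene stood near each other, and in 8-cell embryos the early one was far above.

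The 3 remaining members had lower totals. In c115722_g1 the early transcript had 34.4 and 9.63 TPM in eggs, 19.8 and 17.5 TPM in 8-cell embryos, 2.14 and 1.09 TPM at stage 26 and 1.20 and 1.96 TPM in tadpoles. Its late transcript had 0 TPM in both egg libraries, 0.524 and 0.339 TPM in 8-cell embryos, 6.83 and 9.18 TPM at stage 26 and 14.4 and 6.58 TPM in tadpoles. Both transcripts of this gene were therefore present in the late libraries, with the late one on top in each of the 4.

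In c131574_g5 the early transcript had 9.46 and 10.1 TPM in eggs, 32.8 and 11.4 TPM in 8-cell embryos, 0 and 0.375 TPM at stage 26 and 0 and 1.31 TPM in tadpoles. The late transcript was listed at 0 in all 4 early libraries and had 8.31 and 6.27 TPM at stage 26 and 10.7 and 6.88 TPM in tadpoles. It was the only late transcript of a member at 0 throughout the early libraries. The share at 0 there was 43.7% over all 4230 late transcripts. Those came from 3842 genes, of which 1749 had 2 or more transcripts. By the rule each member also had an early transcript at 3 TPM or more in every early library. The members and that share are therefore not like for like, and nothing is read from the difference. In c133744_g5 the early transcript had 7.48 and 9.06 TPM in eggs, 6.47 and 13.0 TPM in 8-cell embryos, 0.469 and 1.01 TPM at stage 26 and 1.07 and 0.595 TPM in tadpoles. Its late transcript had 0.0330 and 0.449 TPM in eggs, 0.565 and 0.552 TPM in 8-cell embryos, 17.8 and 4.34 TPM at stage 26 and 3.15 and 7.49 TPM in tadpoles. The highest late value of this last transcript came from stage 26 replicate 1 and the lowest, near the 3 TPM limit, from tadpole replicate 1.

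The limits cut through a graded set of genes. In all, 51 genes had both a transcript at 3 TPM or more in every early library and above its own highest late value, and one with the reverse. The smaller of the 2 ratios was highest in c129174_g4 (107) and lowest, among the members, in c115722_g1 (4.50). The nearest gene outside, c126970_g2, reached 3.87. Its early transcript had 7.70 to 33.8 TPM in the early libraries and at most 1.99 TPM in the late ones. At a 2-fold limit 20 genes met the rule, and at an 8-fold limit 3 did: c129174_g4, c131031_g5 and c129475_g2. With a minimum of 1 TPM there were 17 genes, and with a minimum of 10 TPM only c129475_g2 and c120922_g1 were left.

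**Figure D2:**
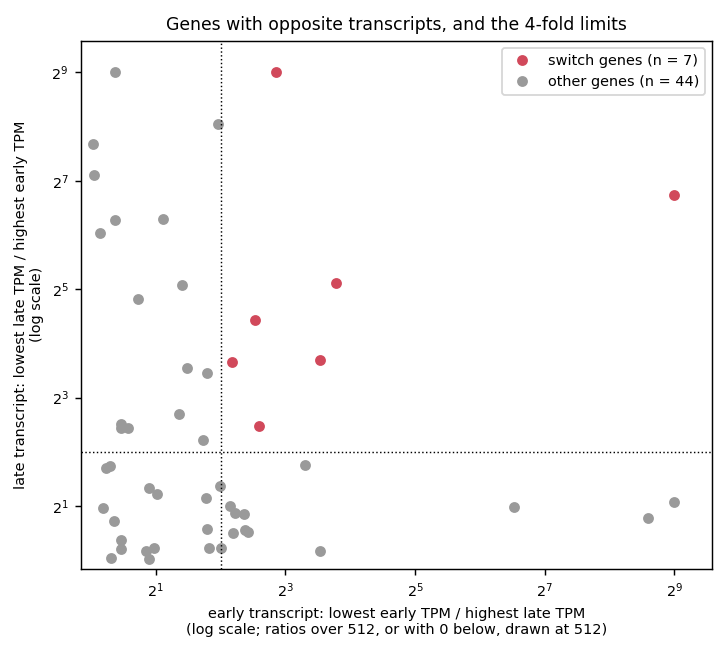
For each of the 51 genes with opposite transcripts at 3 TPM or more, the late transcript's lowest late TPM over its highest early TPM (y axis) against the early transcript's lowest early TPM over its highest late TPM (x axis), both on log scales. Dotted lines mark the 4-fold limits; the 7 switch genes lie in the upper right, and the nearest gene outside has an early ratio of 3.87.

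The exchange can also be read as a share of each gene's TPM, which does not depend on scaling between libraries. In the members with 2 or 3 transcripts the exchange took in most of the gene. This is partly fixed by the number of transcripts, since c115722_g1 and c133744_g5 have none beside the early and the late one. Late transcripts held 74.7% to 100% of c115722_g1, c131574_g5 and c133744_g5 in the late libraries, and the early transcripts held 92.0% to 100% in the early libraries. In c131031_g5 the late transcripts held 98.1% to 99.3% in the late libraries, and the early transcript 54.7% to 96.3% in the early ones.

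In the 3 other genes with 5 or more transcripts, the exchanging transcripts were only part of the gene. Transcripts that met neither condition of the rule held 42.7% to 72.5% of c129475_g2 in the late libraries and 26.2% to 40.3% in the early libraries. In c120922_g1 they held 32.2% to 52.0% in the late libraries and 53.7% to 83.4% in the early ones, and in c129174_g4 22.1% to 40.2% and 47.1% to 79.8%, in that order. Over all members, 11 of the 15 transcripts that met neither condition overlapped between late and early libraries, 3 were higher in all late libraries and 1 was lower in all of them. Of the 15, 4 stood at 3 TPM or more in every library and 3 stayed under 3 TPM in every library. No such shares over all transcripts are given here, so nothing about the members is read from these counts.

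**Figure D3:**
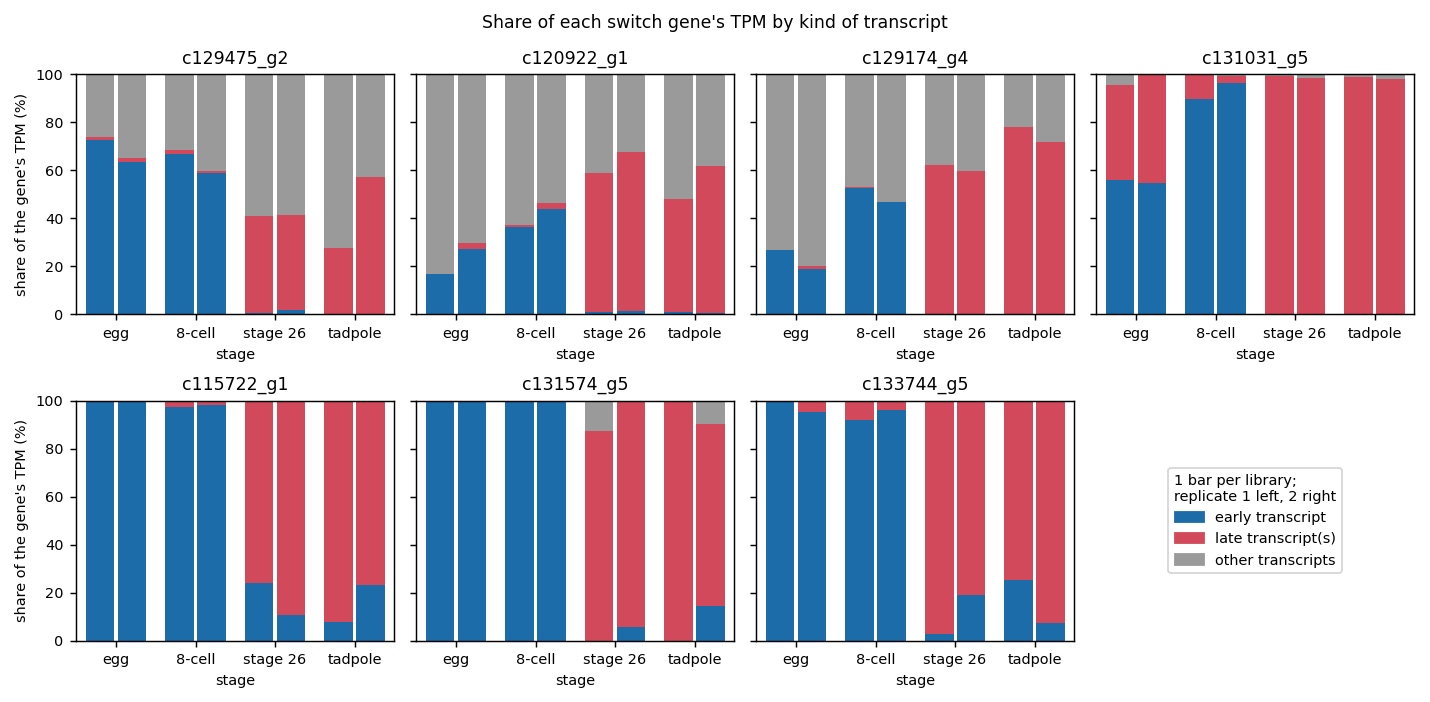
Share of each gene's TPM (%) held by its early transcript (blue), late transcript or transcripts (red) and all others (grey), with 1 bar per library in stage order and replicate 1 to the left. In c115722_g1, c131574_g5 and c133744_g5 red takes 74.7% to 100% of the late bars and blue 92.0% to 100% of the early bars, whereas grey takes 22.1% to 83.4% of every bar of c129475_g2, c120922_g1 and c129174_g4.

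The late minus early differences of the gene totals had both signs. The negative ones all came from members whose late and early totals overlapped, so a fall of a total is not shown. The difference between the late and early means of log2(total + 1) ranged from -0.77 in c115722_g1 to 3.39 in c131031_g5. That difference was under 1 in size in 4 of the 7 members. The median over the members was 0.087, against 0.86 over the 119072 gene totals tested. The order of these medians turned with quantile normalization, to 0.47 and 0.14, and the median over all totals was 2.03 with a pseudocount of 0.1 and 0.28 with 5, so the members are not set apart by it. The sign of the members' median was not stable, since it ranged from -0.19 to 0.51 when 1 library was left out. The total of c131031_g5 was 6.23 ± 0.226 TPM in eggs, 23.8 ± 2.07 TPM at the 8-cell stage, 139 ± 61.6 TPM at stage 26 and 155 ± 72.7 TPM in tadpoles (mean ± SD, n = 2 each). The total of c115722_g1 was 22.0 ± 17.5 TPM in eggs, 19.1 ± 1.74 TPM at the 8-cell stage, 9.62 ± 0.925 TPM at stage 26 and 12.1 ± 4.98 TPM in tadpoles (mean ± SD, n = 2 each).

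Totals were higher in all 4 late libraries than in all 4 early ones in 2 members, c129174_g4 and c131031_g5, a pattern shown by 29.9% of the gene totals tested. No member had all late totals below all early ones, a pattern shown by 5.95%. In the remaining 5 members the late and early totals overlapped. These values come from the libraries on which the members were chosen and are given without a test. By the rule each member also held at least 3 TPM in every library, unlike the genes behind these percentages. Nothing is therefore read from the members' counts beside them.

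**Figure D4:**
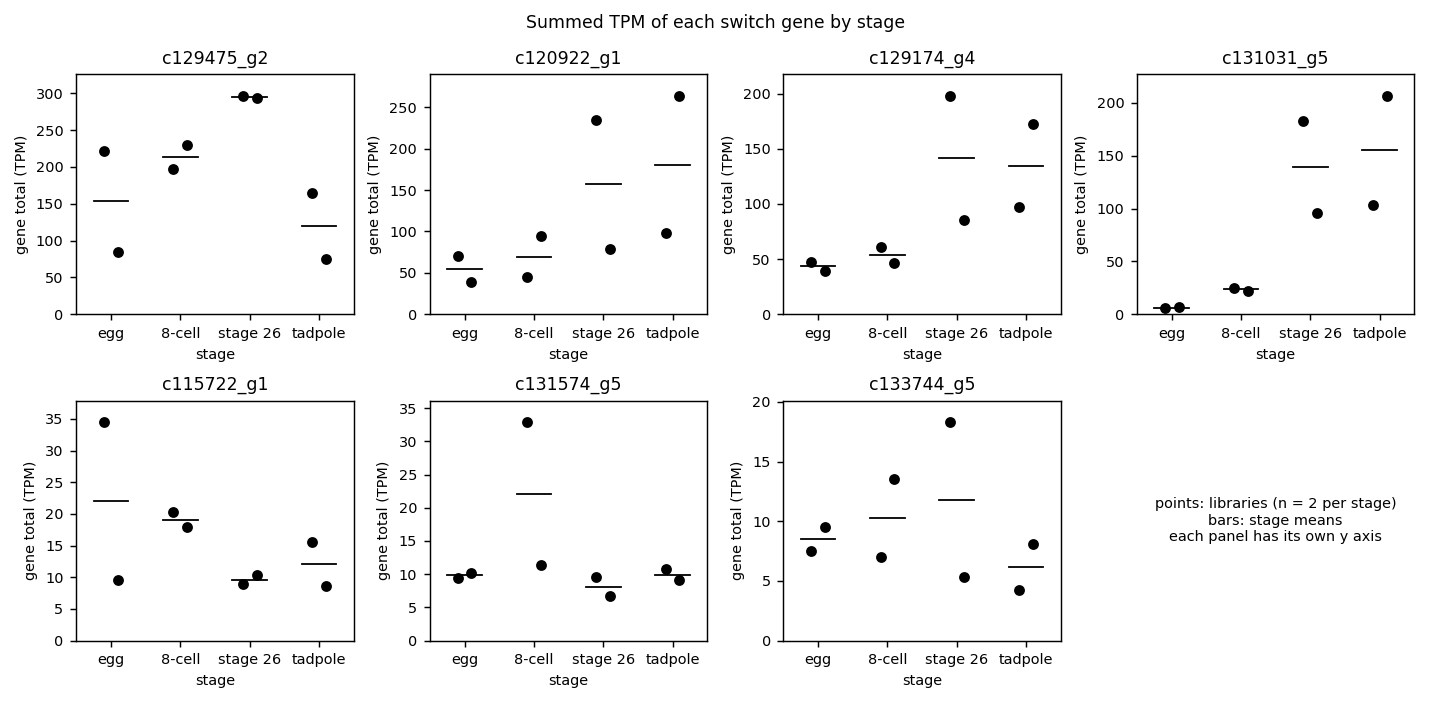
Summed TPM of each of the 7 genes by stage, with 1 point per library (n = 2 per stage), bars at the stage means and a separate y axis from 0 for each panel. The late and early points are apart in c129174_g4 and c131031_g5 and overlap in the other 5 genes.

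The rule compared neither the 2 late stages nor the 2 early stages with each other. These differences were tested, over all transcripts at 1 TPM or more in at least 2 libraries. The rule did limit them, since late transcripts had to reach 3 TPM in all 4 late libraries, and early ones in all 4 early libraries. A transcript at 0 in 1 of the compared stages was thus kept out of the counts of late or early transcripts below. The test was limma's moderated test on log2(TPM + 1), two-sided, with Benjamini-Hochberg adjustment over 151423 transcripts and a threshold of 0.05. The first comparison sets swimming tadpoles against stage 26, that is, the later against the earlier stage of the embryo's own expression. None of the 9 late transcripts passed (smallest adjusted p = 0.251, limma), while 5.5% of all transcripts passed in either direction. That background was itself unstable: 0 transcripts of the table passed without any 1 of the 7 libraries other than stage 26 replicate 1, with a replicate block or when only the 4 late libraries were fitted. Among the 109255 transcripts above 0 in at least 1 early library 19 passed, so nothing is read from the members' count against 5.5%. At an unadjusted p under 0.05 there was 1 late transcript, c129475_g2_i1, and 0 when only the 4 late libraries were fitted (limma). Over all transcripts 16.2% reached that level in the fit to all libraries. Transcript c129475_g2_i1 was lower in tadpoles by a log2 difference of -1.40 (SE 0.54). The median difference over the late transcripts was 0.15, against 0 over all transcripts tested. It was -0.38 without stage 26 replicate 2 and -0.10 without tadpole replicate 2, against -0.11 and -0.04 over all transcripts, in that order. The early transcripts are capped in both of these stages by the rule, so nothing is read from 0 of 7 passing. Among them c129475_g2_i4 alone had an unadjusted p under 0.05, with a log2 difference of -1.86 (SE 0.72, adjusted p = 0.253, limma). It was called with a pseudocount of 0.1, as given further down.

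In this comparison 2 transcripts of the members did pass, both among the 12 tested that met neither condition of the rule. Over all transcripts 5.5% passed in either direction. Both belonged to c129475_g2, so they are not results from 2 separate genes. Transcript c129475_g2_i3 had 40.7 and 19.0 TPM in tadpoles and was listed at 0 in both stage 26 libraries and in all early libraries. Its difference on the log2(TPM + 1) scale was 4.85 (SE 0.50, adjusted p = 0.0201, limma), a size set by the pseudocount since stage 26 is at 0: it was 8.13 with a pseudocount of 0.1 and 2.73 with 5. In this comparison 4.4% of all transcripts rose, a share that likewise fell to 0 without most single libraries. Transcript c129475_g2_i2 fell to 25.9 and 6.33 TPM in tadpoles, against 173 and 172 TPM at stage 26. Its log2 difference was -3.63 (SE 0.79, adjusted p = 0.0480, limma), and 1.11% of all transcripts fell. The most abundant transcript of the gene was i2 in both stage 26 libraries, i5 in tadpole replicate 1 and the late transcript i1 in tadpole replicate 2. A transcript at 0 in 6 libraries shows no spread there, which makes the SE of c129475_g2_i3 small. It also met the minimum for testing through the tadpole libraries alone, the group where it is high. Its p-value is therefore not read as evidence of a rise, and its values are given as a description.

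Both calls depended on single libraries. The rise of c129475_g2_i3 had an adjusted p of 0.0582 to 0.0982 (limma) without either egg or either 8-cell library, 0.0553 without stage 26 replicate 2, 0.0354 without stage 26 replicate 1, and 0.223 when only the 4 late libraries were fitted. Without 1 of the tadpole libraries it no longer met the minimum for testing. The fall of c129475_g2_i2 lost its call without any 1 of the 8 libraries, with adjusted p from 0.0670 to 0.338 (limma). The log2 difference of the fall then ranged from -4.56 to -2.69. Another transcript of the gene, c129475_g2_i5, had 53.3 and 6.89 TPM in tadpoles, against 1.41 and 0.755 TPM at stage 26, with 7.32 to 23.0 TPM in the early libraries. Its log2 difference of 3.33 (SE 0.91) did not pass (adjusted p = 0.0966, limma).

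**Figure D5:**
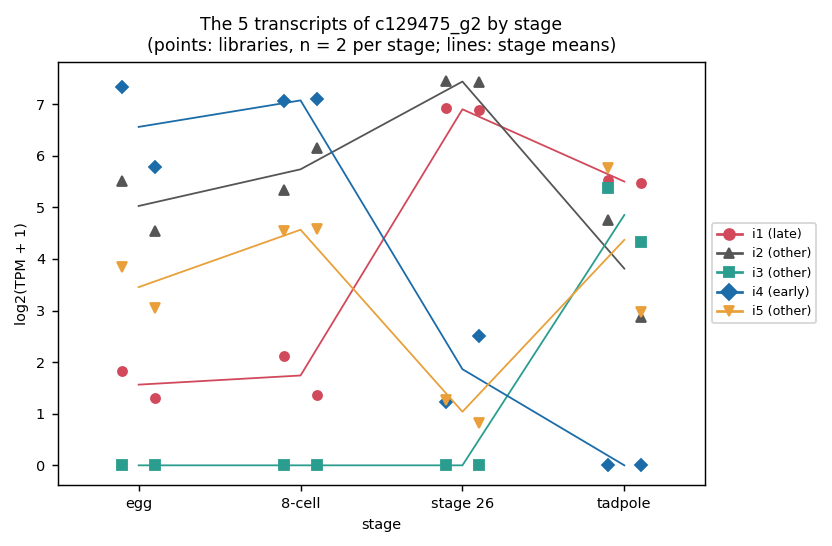
Log2(TPM + 1) of the 5 transcripts of c129475_g2 against stage, with 1 point per library (n = 2 per stage) and lines through the stage means. The early transcript i4 leads in eggs and 8-cell embryos, i2 and the late transcript i1 lead at stage 26, and i3 is above 0 in tadpoles only, at 40.7 and 19.0 TPM.

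Gene totals and shares within genes were compared in the same way. In tadpoles against stage 26, 0 of the 7 totals passed, with 5.33% of 119072 gene totals passing in either direction (limma). An unadjusted p under 0.05 was reached by 0 of the 7 and by 16.4% of all totals tested (limma). With 7 members nothing is read from this. The number of totals passing in the table was 6351, but 68 without egg replicate 1, 94 without egg replicate 2 and 0 without any 1 of the 8-cell or tadpole libraries or stage 26 replicate 2. It was 0 with a replicate block or with only the 4 late libraries, and 83 among the 86802 totals above 0 in at least 1 early library. The largest difference was that of c129475_g2, whose total was 120 ± 63.4 TPM in tadpoles and 295 ± 1.31 TPM at stage 26 (SD, n = 2 each). Its log2 difference was -1.39 (SE 0.72, adjusted p = 0.446, limma). Shares within genes were tested over 38863 transcripts, as the log2 ratio of a transcript plus 1 TPM to the rest of its gene plus 1 TPM. Where either part is near 0, this ratio also follows the gene total and the scaling, unlike the percentages above. No transcript share of the whole table passed (0%, smallest adjusted p = 0.0666, limma), although 2199 had an unadjusted p under 0.05. The smallest adjusted p belonged to c129475_g2_i3. The shares of the 9 late transcripts gave differences from -0.84 to 0.92, with 0 at an unadjusted p under 0.05.

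The second comparison sets 8-cell embryos against unfertilized eggs, across fertilization and the first cleavages. No transcript of the table passed (0% of 151423, limma), with 9933 at an unadjusted p under 0.05. Of the 7 early transcripts of the members, 7 had a positive log2 difference with TPM as deposited, but 4 with median-of-ratios scaling and 5 with quantile normalization. Their median was 0.92 on the unscaled values, 0.35 after median-of-ratios scaling and 0.58 after quantile normalization, while the median over all transcripts was 0, 0 and -0.14. The value of 0 over all transcripts rests on 42175 without any difference. The median over all was 0.18 at a minimum of 5 TPM, 0.24 among transcripts above 0 in at least 1 early library and 0.42 when only the 4 early libraries were fitted. The members' median was 0.51 without 8-cell replicate 2 and 0.60 without 8-cell replicate 1, each with 6 of 7 positive. It was 1.24 without egg replicate 1, with 7 of 7 positive, and 5 of 7 were positive without egg replicate 2. Among the 7 early transcripts, 2 had an unadjusted p under 0.05 in the fit to all libraries (limma). The largest difference was that of the early transcript of c131031_g5, c131031_g5_i1, with 22.7 and 21.5 TPM in 8-cell embryos, against 3.40 and 3.50 TPM in eggs. The 2 stages did not overlap and the replicates lay close together, but the log2 difference of 2.38 (SE 0.44) did not pass (adjusted p = 0.199, limma). The other was the early transcript of c129174_g4, with 32.0 and 21.7 TPM in 8-cell embryos, against 12.9 and 7.49 TPM in eggs, a log2 difference of 1.34 (SE 0.50, adjusted p = 0.665, limma). The spread in this fit comes partly from the late libraries, where the rule holds early transcripts low, which can make these SEs too small. When only the 4 early libraries were fitted, 1 of the 7 had an unadjusted p under 0.05 (limma). The SE of c131031_g5_i1 was then 0.65 (adjusted p = 0.428, limma).

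Gene totals and shares gave the same count in this comparison. Of the members' totals 0 passed, as did 0% of all totals, with 7612 of the table and 1 member at an unadjusted p under 0.05 (limma). That member was c131031_g5, with 23.8 ± 2.07 TPM in 8-cell embryos and 6.23 ± 0.226 TPM in eggs (SD, n = 2 each) and an adjusted p of 0.623 (limma). Of the early transcripts' shares 0 passed, as did 0% of all shares, with 2812 of the table and 2 members at an unadjusted p under 0.05. In c131031_g5 the early transcript held 93.1% ± 4.58 of the gene in 8-cell embryos and 55.4% ± 0.978 in eggs, and the late transcripts 6.64% ± 4.98 and 42.3% ± 4.24, in that order (SD, n = 2). In c129174_g4 the early transcript held 49.8% ± 4.24 in 8-cell embryos and 23.0% ± 5.59 in eggs (SD, n = 2). The adjusted p of these shares was 0.366 and 0.677 (limma).

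The spread between the libraries of a stage limits all of these comparisons. For the members, the median distance between the 2 libraries of a stage, in log2(TPM + 1), was 0.70 in tadpoles and 1.05 at stage 26 for the late transcripts, and 0.54 in 8-cell embryos and 0.25 in eggs for the early ones. Over all late transcripts of the table it was 0.66 in tadpoles and 0.83 at stage 26, and over all early ones 0.45 in 8-cell embryos and 0.90 in eggs. At stage 26, 7 of the 9 late transcripts of the members were higher in replicate 1 than in replicate 2, as were 2591 of all 4230 late transcripts of the table. Those libraries also differed in breadth, with 58627 transcripts at 3 TPM or more in replicate 1 and 35320 in replicate 2, and the part of this in the values above was not tested.

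Opposite transcripts of 1 assembly gene were found between any 2 single libraries, also within a stage. With the limits of the rule applied to 1 library against 1 other, the 4 pairs from the same stage gave 190 to 479 genes. The 16 pairs of a late and an early library gave 276 to 521. All of these counts are out of 43257 genes with 2 or more transcripts. The 8 pairs from different stages within early or within late gave 248 to 630. With both libraries of each stage, 13 genes met the limits between tadpoles and stage 26, 43 between stage 26 and the 8-cell stage, and 10 between the 8-cell stage and eggs. All 7 members were among the 43, as the rule requires, 1 of them (c129475_g2) was among the 13 and 0 were among the 10. None of the members was among the genes found between libraries of the same stage. These sets are small beside 43257 genes, so nothing is read from 0 or 1 of the 7 members being in them.

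Of the 7 members, 6 belonged to components, the larger units of the assembly, that held more than 1 gene, as did 51.4% of all genes with 2 or more transcripts. Their components held 25 further genes, none with an early transcript in the sense of the rule and 1 with a late transcript, c129174_g6. Of all 145306 genes, 818 had an early and 3842 a late transcript, so nothing is read from these counts. Some neighbours had higher totals in all late libraries without meeting the limits, among them c133744_g1, c133744_g2 and c133744_g3. Others had lower totals late, also without meeting them. The total of c131031_g4 was 1.08 to 30.0 TPM in the early libraries and 0 in all late ones. That of c131031_g7 was 8.56 to 29.0 TPM in the early libraries and 1.70 to 2.65 TPM in the late ones. The total of c129174_g6 was listed at 0 in all early libraries and stood at 51.7 and 102 TPM at stage 26 and 286 and 89.7 TPM in tadpoles. The neighbour of c129475_g2 in its component, c129475_g1, had a total of 13.3 to 41.2 TPM in the early libraries, 37.4 and 26.0 TPM at stage 26 and 502 and 470 TPM in tadpoles. It was highest in the stage in which the mean total of c129475_g2 was lowest. The totals of c129475_g2 overlapped, however, between tadpoles (165 and 75.5 TPM) and eggs (222 and 84.9 TPM). A link between these 2 genes was not tested. When the rule was applied to whole components in place of assembly genes, 19 components met it, of which 7 held the members.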

How the data were processed

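The deposited values are TPM per transcript for each of 8 libraries, made by the authors; the submitters' processing notes name kallisto 0.42.4. This tool matches reads to transcripts without full alignment and divides reads that fit several similar transcripts by estimation, which bears on transcripts of 1 gene. How the transcripts were assembled is not given in the sources used here. Read totals were not used, TPM keeps no depth, and no counting intervals were computed. Columns were matched to samples by title, and stages and replicate numbers come from the source names. The table holds 220713 transcripts, grouped by identifier into 145306 assembly genes.

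Members and comparisons were chosen with earlier results of these data known, and no gene list was applied. Differences between late and early were described only. Within late and within early, transcripts and gene totals at 1 TPM or more in at least 2 libraries were fitted as log2(TPM + 1) in limma 3.58.1 (R 4.3.3), with a mean per stage, 4 residual degrees of freedom, a trend in the prior variance and Benjamini-Hochberg adjustment. Shares were fitted as log2 of (transcript + 1) over (rest of the gene + 1), without a trend. Named transcripts were those past the test with the largest change, a mean of at least 10 TPM and no overlap, or the largest such difference where none passed; others are shown as members. Alternatives covered the limits of the rule, pseudocount, filter, scaling, fitted libraries and a replicate block. Scripts were checked on simulated data. Summaries used Python 3.11.15, pandas 2.3.3 and numpy 2.4.6.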

Additional observations from a re-analysis of the deposited data

How the results depend on the processing

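The number of members depended on the limits of the rule and on 1 library. It was 20 at 2-fold, 3 at 8-fold, 17 with a minimum of 1 TPM, 2 with a minimum of 10 TPM and 19 by component. It was 7 with median-of-ratios scaling, of which 6 were shared, since c133744_g5 was lost and another gene gained. Leaving out 1 library gave 7 to 13 genes, with 13 reached without 8-cell replicate 1. Fewer libraries then have to meet the limits, so the count cannot fall and all 7 members are kept by construction. The median late minus early difference of the members' totals ranged from -0.19 to 0.51 without 1 library and was 0.20 with median-of-ratios scaling, where the median of all genes was 0.87. Across the 8 counts of calls among early and late transcripts, totals and shares, 131 of 132 combinations with another pseudocount, filter, scaling, set of libraries or block gave 0 calls (0 to 0 without 1 library). These zeros do not measure stability. No feature of the whole table passed in 8-cell embryos against eggs, or for shares, with the settings as reported. In tadpoles against stage 26 the table had 0 calls among transcripts without most single libraries, and the rule keeps early transcripts low in late libraries and late ones low in early libraries. The exception was a pseudocount of 0.1, with 1 early transcript called in tadpoles against stage 26 (c129475_g2_i4, adjusted p = 0.0305, limma). The fall of c129475_g2_i2 lost its call under every alternative, with adjusted p from 0.0504 with a pseudocount of 5 to 0.223 in the fit to the compared stages (limma), beside the values without 1 library given above. The rise of c129475_g2_i3 kept its call with other pseudocounts, filters and scalings (adjusted p 0.00959 to 0.0297, limma). Under each minimum it entered the test through its tadpole values alone, so the kept calls add no support. An alternative added after the data were seen, without features at 0 in all early libraries, left it out. Replicate numbers were taken only to name samples. The differences between replicates correlated at -0.25 between tadpoles and stage 26, at 0.15 between 8-cell embryos and eggs, and at -0.03 to 0.02 otherwise. Tadpole replicate 2 was the broader one, with 57627 transcripts at 3 TPM or more against 43964, whereas replicate 1 was at stage 26. Whether stage 26 replicate 1 and tadpole replicate 2 are linked was not tested. With the replicate number as a block, 0 early or late transcripts, totals or shares were called, and the adjusted p was 0.0600 for c129475_g2_i3 and 0.0865 for c129475_g2_i2 (limma). Precision is limited by 2 libraries per stage and an unknown depth.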
